A study of Mus musculus with 9 samples.

Results

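The genes described are 10 genes of mast cell inhibitory signalling: the receptors Fcgr2b, Lilrb4a, Pirb, Cd300a, Cd200r1 and Milr1, the activating receptor Fcgr3 that pairs with Fcgr2b, and the phosphatases Inpp5d, Ptpn6 and Ptpn11. They were chosen by name, as the rows of the deposited count table whose Ensembl identifiers map to these 10 symbols. Of the 10 members, 9 had a row, out of 47643 genes in the table, and all 9 passed the filter on low values. Lilrb4a (ENSMUSG00000112148) had no row under its own identifier and was not analysed here as a member. RNA was measured in bone marrow-derived mast cells (BMMCs), which are mast cells grown from C57BL/6 mouse marrow for at least 4 weeks in medium conditioned by WEHI-3 cells, a source of interleukin 3. The 9 libraries formed 3 groups of 3, with the same culture protocol in the labels. Control cells were untreated, IgE+BSA cells were sensitized with IgE against dinitrophenyl (DNP) and challenged with DNP-coupled albumin, and IgE+BSA+Luteolin cells also received luteolin, a plant flavone, at 10 uM for 24 h. The labels' treatment text names luteolin for every sample, so groups were taken from the titles, and the doses and times of IgE and antigen for the sequenced cells were not given in the sources used here. The study describes luteolin in this experiment both as a pretreatment and as added after the antigen, so the order of the 2 agents is not settled. How many mice or cultures stood behind the libraries was not given in the sources used here, so p-values measure the spread between these libraries, which may be technical.

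Mast cells release their granules when antigen clusters the high-affinity IgE receptor, whose ITAM motifs recruit activating kinases. Most inhibitory receptors carry ITIM motifs in their tails, and when these are phosphorylated they recruit the lipid phosphatase SHIP1, encoded by Inpp5d, or the tyrosine phosphatases SHP-1 and SHP-2, encoded by Ptpn6 and Ptpn11, which dampen the signal. RNA levels, which were measured here, do not show whether a receptor was engaged or phosphorylated.

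The control libraries did not form one group. Control 2 and Control 3 resembled each other, with a chi-square per degree of freedom of 6.57 between their counts, whereas Control 1 stood apart from both at 88.2 and 146.4. Between replicates of the other groups the value ranged from 4.05 to 15.2. Neutrophil markers summed to 20.4 and 19.7 CPM (a library's counts scaled to a common total, here with TMM factors) in Control 2 and 3, against 281.1 in Control 1, 201.3 to 223.8 with IgE+BSA and 235.2 to 272.5 with luteolin. Mcpt8, a basophil protease, was at 21.8 and 18.7 CPM in Control 2 and 3 and between 292.2 and 431.7 CPM in the other 7 libraries. The rest of the basophil list did not move as one. Gzmb was also lower in Control 2 and 3 (1558 and 1606 CPM, against 3350 to 4238 CPM in the other 7). Cd200r3 was higher there (1045 and 1023 CPM, against 615.9 to 753.2 CPM). Prss34 (650.5 and 610.9 CPM) lay within the range of the other 7, as did Itga2, at no more than 2.98 CPM in any library. The labelled cell type was borne out by its markers, since all 13 mast cell markers had at least 3 counts in every library and summed to between 59550 and 87850 CPM. The sum was lowest in Control 2 and 3, and some markers split there. Mcpt4 was at 201.5 and 196.8 CPM, against 1027 to 1752 CPM in the other 7 libraries. Cma1 (4049 and 3555 against 6390 to 10120 CPM), Tpsb2 and Hdc were lower there too. Mrgprb1 (11.7 and 8.78 against 2.19 to 4.0 CPM), Tpsab1, Gata2 and Kit were higher there than in the other 7. These markers and those of basophils were named after their values were seen. T cell markers summed to at most 0.588 CPM, with Cd3e and Cd8a at 0 in every library, and B cell markers summed to between 2.44 and 3.48 CPM, with Ms4a1 at 0. Macrophage markers summed to between 261.0 and 329.2 CPM, and dendritic cell markers to between 25.3 and 32.0 CPM. Basophil markers summed to 3277 and 3260 CPM in Control 2 and 3, 6117 CPM in Control 1 and between 4826 and 5546 CPM in the other libraries. Whether Control 2 and 3 came from the same culture as the other 7 libraries was not given in the sources used here, so culture and group cannot be told apart in comparisons with Control. Calls against Control are therefore given with and without Control 1. Depth ranged from 9515004 counts in Control 2 to 24605689 counts, so that 3 counts corresponded to between 0.122 and 0.315 CPM.

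**Figure D1:**
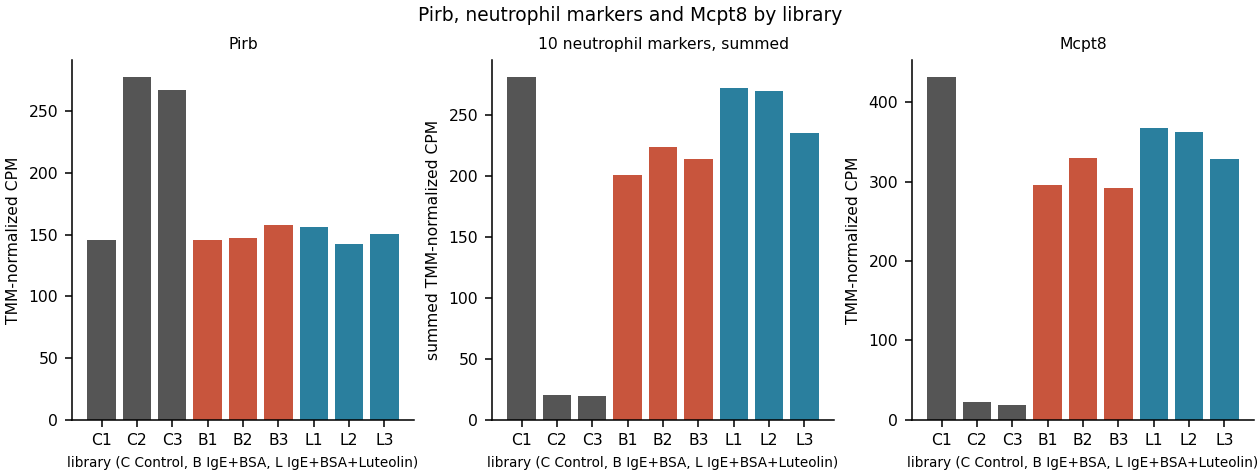
TMM-normalized CPM of Pirb, of 10 neutrophil markers summed and of Mcpt8, one bar per library, with libraries of Control (C), IgE+BSA (B) and IgE+BSA+Luteolin (L) on the x axis. Pirb stood at 277.6 and 267.6 CPM in Control 2 and 3, where the neutrophil markers and Mcpt8 were lowest, and between 142.4 and 157.6 CPM in the other 7 libraries. Mcpt8 does not stand for all basophil markers, since Cd200r3 (not drawn) was highest in Control 2 and 3, at 1045 and 1023 CPM.

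Inpp5d had the most counts of the members, at 651.1 ± 7.3 CPM with IgE+BSA (SD, n = 3), and Fcgr3 and Milr1 had few, at 59.0 ± 2.3 and 56.4 ± 3.3 CPM. Levels of different genes were compared only per kilobase of exon. On that scale, with the union of all exons as the length, Ptpn6 (85.8 CPM per kilobase over the 9 libraries) and Inpp5d (83.3) led, and their order did not hold from library to library, since Ptpn6 was the higher in 4 of 9. Cd300a followed at 59.6, then Pirb at 39.5, Cd200r1 at 38.9 and Fcgr3 at 37.5, whose ranges overlapped. Pirb exceeded Cd200r1 in 2 of 9 libraries, Control 2 and 3, and its group mean was 51.5 CPM per kilobase in Control and 33.6 and 33.5 with IgE+BSA and luteolin. Milr1 at 25.7, Fcgr2b at 18.6 and Ptpn11 at 11.5 closed the order, and Fcgr2b exceeded Ptpn11 in 9 of 9 libraries without overlap. With the length of the longest coding transcript instead, Inpp5d came first in 8 of 9 libraries and Cd200r1 came ahead of Cd300a in 8 of 9, so the middle of the order depends on the length used. Fcgr2b and Ptpn11 remained the lowest with either length.

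Upstream sequence is shown for 2 members, Milr1, which differed most between the luteolin and IgE+BSA groups, and Inpp5d, the member with the most counts, which did not pass the test there. RefSeq starts (GRCm38.p6) were found for 8 of the 9 members with a row, and the 250 bases before each start were searched on both strands for short motifs of the GATA, ETS, AP-1 and E-box families. The window of Milr1 is chr11:106750976-106751225 on the plus strand and that of Inpp5d is chr1:87620062-87620311 on the plus strand. Neither window overlapped an annotated exon. Capitals mark a match to one of the searched motifs.
Milr1: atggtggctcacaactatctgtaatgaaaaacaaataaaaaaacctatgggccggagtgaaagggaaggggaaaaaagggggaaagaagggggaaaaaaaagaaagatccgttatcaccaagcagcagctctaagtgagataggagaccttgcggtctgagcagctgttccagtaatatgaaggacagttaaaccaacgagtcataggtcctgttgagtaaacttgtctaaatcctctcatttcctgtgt
Inpp5d: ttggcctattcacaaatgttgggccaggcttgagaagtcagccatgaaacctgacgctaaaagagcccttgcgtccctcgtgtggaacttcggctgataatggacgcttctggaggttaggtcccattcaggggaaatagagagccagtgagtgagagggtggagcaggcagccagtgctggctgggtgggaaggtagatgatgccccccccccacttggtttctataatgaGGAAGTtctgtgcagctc
No match was found in the Milr1 window, and the ETS letters GGAAGT began 18 bases before the start of Inpp5d. They were also found before Fcgr2b, Pirb and Ptpn6, so in 4 of 8 member windows, against 20.0% of the 27025 promoters of the same length. The GATA letters GATAAG were before none of the 8, against 6.6% of all promoters. The same held for the AP-1 letters TGANTCA at 6.87%, and for the E-box letters CACGTG at 6.05%. A match of letters is a description of the window and not a binding site.

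**Figure D2:**
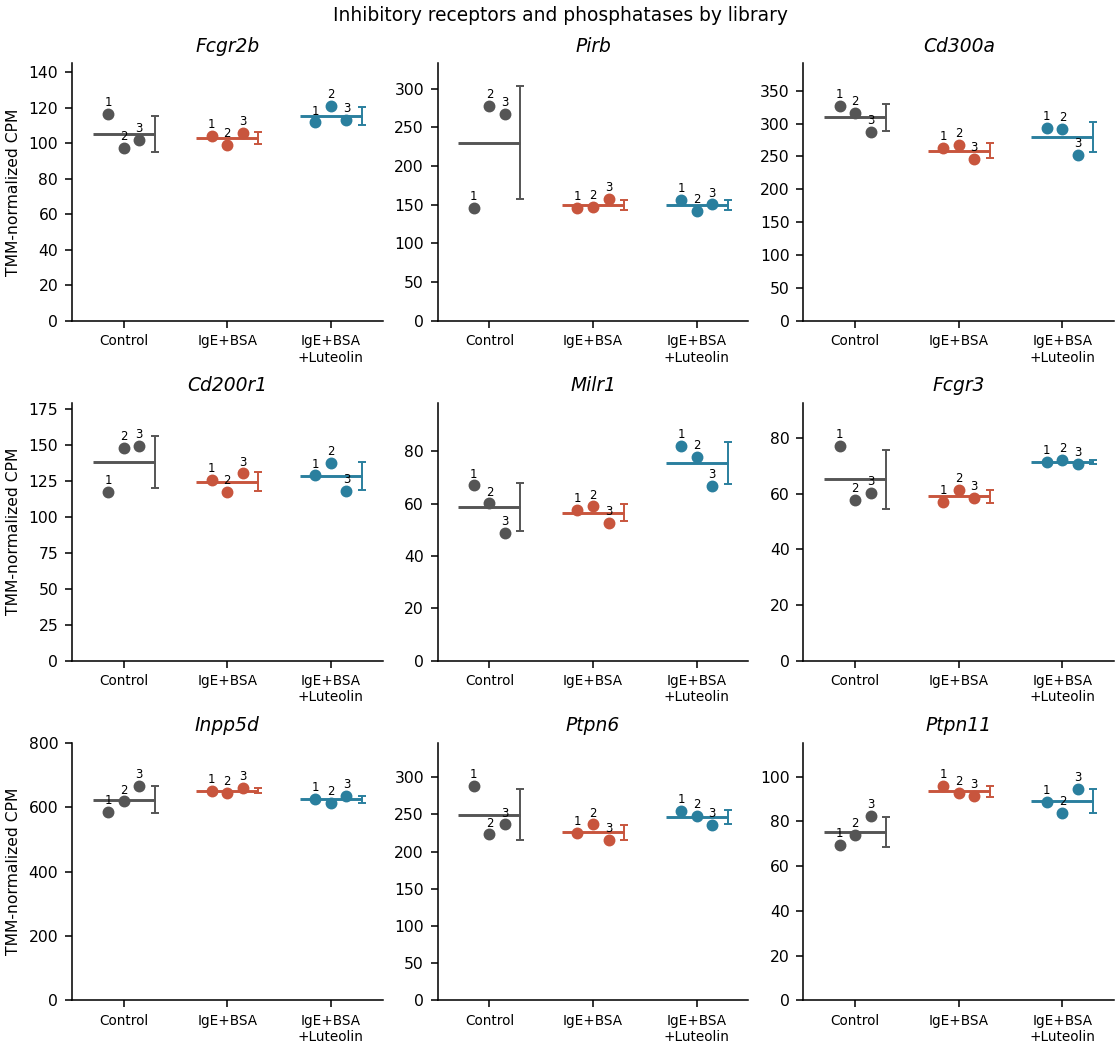
TMM-normalized CPM of each member in every library (points, numbered by replicate), with the group mean (line) and SD (bar), for Control, IgE+BSA and IgE+BSA+Luteolin. Milr1, Fcgr3 and Fcgr2b lay higher with luteolin than with IgE+BSA in every library, and the Pirb points of Control split into 1 low and 2 high values.

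The first question was what luteolin changed in stimulated cells, the comparison of IgE+BSA+Luteolin with IgE+BSA. The 3 receptors Milr1, Fcgr3 and Fcgr2b, were higher with luteolin, by 1.34-, 1.21- and 1.12-fold, and none of the 3 phosphatases passed the test. By edgeR's quasi-likelihood test with Benjamini-Hochberg adjustment, 3 of 9 members were called, 3 higher and 0 lower. Among all 11560 genes tested 40.0% were called, 18.1% higher and 21.9% lower, so the share of members called was near the background. The median log2 fold change was 0.11 over the 9 members and 0.02 over all genes tested. Libraries of the 2 groups did not overlap for 4 of 9 members, against 50.3% of all genes.

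Milr1 (ENSMUSG00000040528, chr11:106751226-106768794 on GRCm38) encodes Allergin-1, an ITIM receptor of mast cells that restrains IgE-dependent degranulation. It stood at 57.7, 58.9 and 52.7 CPM with IgE+BSA and at 82.0, 77.7 and 66.6 CPM with luteolin. Every luteolin library was above every IgE+BSA library, and luteolin replicate 3 was nearest to them. The log2 fold change was 0.42 ± 0.08 (SE, adjusted p = 0.00048, edgeR), and it lay between 0.35 and 0.53 over 14 alternatives, with adjusted p from 3.71e-08 to 0.0779. An exon of Milr1 overlaps Polg2 on the opposite strand, and whether the counting used strand was not given in the sources used here.

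Fcgr3 (ENSMUSG00000059498, chr1:171051174-171064935) encodes the ligand-binding chain of the activating IgG receptor FcgammaRIII, which carries no ITIM and signals through an ITAM-bearing partner. Its levels were 57.0, 61.4 and 58.6 CPM with IgE+BSA and 71.4, 72.1 and 70.6 CPM with luteolin. The luteolin libraries lay close together and above all IgE+BSA libraries. The log2 fold change was 0.28 ± 0.06 (SE, adjusted p = 0.0021, edgeR), with adjusted p from 0.000138 to 0.175 over 14 alternatives.

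Fcgr2b (ENSMUSG00000026656, chr1:170958617-170976547) encodes FcgammaRIIB, the inhibitory IgG receptor, which recruits SHIP1. It was measured at 104.0, 99.0 and 105.7 CPM with IgE+BSA and at 111.7, 120.9 and 113.3 CPM with luteolin. The groups did not overlap, but the gap between them was narrow. The log2 fold change was 0.17 ± 0.06 (SE, adjusted p = 0.0297, edgeR), and the call was lost without IgE+BSA replicate 1 (adjusted p = 0.0784), IgE+BSA replicate 2 (0.0889), luteolin replicate 1 (0.0549) or luteolin replicate 2 (0.165), within a range of 0.000464 to 0.307 over all 14 alternatives. An exon of Fcgr2b overlaps the antisense gene Gm38204.

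Among the other receptors none passed the test. Cd300a, which binds phospholipids exposed on dying cells, was at 263.0, 267.1 and 246.7 CPM with IgE+BSA and 292.9, 292.1 and 252.5 CPM with luteolin, a log2 difference of 0.11 ± 0.06 (SE). Luteolin replicate 3 lay within the IgE+BSA range. Pirb, a receptor for MHC class I, differed by 0.00 ± 0.06 on the log2 scale, at 150.0 ± 6.6 CPM with IgE+BSA and 149.8 ± 7.0 CPM with luteolin (SD, n = 3). Cd200r1, the receptor for CD200, which signals through Dok adaptors, was at 124.6 ± 6.5 and 128.3 ± 9.8 CPM.

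The phosphatases moved little. Inpp5d was at 650.1, 644.3 and 658.9 CPM with IgE+BSA and 625.6, 612.6 and 634.3 CPM with luteolin, a log2 difference of -0.06 ± 0.05 (SE) that did not pass the test although the libraries did not overlap. Ptpn6 was at 224.7, 236.5 and 215.9 CPM with IgE+BSA and 254.7, 247.7 and 236.2 CPM with luteolin, and its log2 difference of 0.13 ± 0.06 (SE) had an adjusted p of 0.0821 in edgeR. The lowest luteolin library and the highest IgE+BSA library all but coincided. Ptpn11 was at 93.5 ± 2.3 and 89.1 ± 5.4 CPM (SD, n = 3). Exons of Ptpn6 overlap the antisense gene Gm20531.

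These counts depended on how the spread was estimated and how libraries were scaled. With all 9 libraries in 1 fit, where the spread of Control enters, 0 members were called (Milr1 adjusted p = 0.0779, edgeR), and 9.46% of all genes. With library size alone, and with a correction for gene length chosen after seeing the data, Cd300a and Ptpn6 were called too, 5 members in all, but the median of all genes then lay at 0.13 and 0.11 on the log2 scale in place of 0.02, and Inpp5d and Ptpn11 turned positive while staying below that median. Cd300a and Ptpn6 were also called with the replicate number as a block (adjusted p = 0.0419 and 0.019, edgeR), among 48.3% of all genes. Without luteolin replicate 3 again 5 members were called, among 44.0% of all genes. In these 2 settings the median of all genes was 0.02 and 0.01. Of the 4624 genes called, 2097 were higher, against 3856 of 5623 with library size alone and 3523 of 5281 with the length correction. Several measures moved with the treatment. Across 11541 genes the fold change had a Spearman correlation with exon length of -0.319, and the called members had exon lengths of 1736 (Fcgr3), 2474 (Milr1) and 5790 bases (Fcgr2b). Mast cell markers summed to between 75600 and 86590 CPM with luteolin and between 64470 and 70840 CPM with IgE+BSA, and the neutrophil sums given above did not overlap either. Abundant markers such as Cpa3 weigh most in the mast cell sum, while of the 13 markers 6 were called higher (Mcpt4 among them, log2 0.42) and 3 lower (Tpsab1, Hdc and Mitf, log2 -1.32, -1.16 and -0.19), with a median log2 fold change of -0.03. Tpsab1 was the 1 mast cell marker also called between luteolin and Control (log2 -1.49, adjusted p = 0.0208, edgeR; -1.72 without Control 1 and -0.88 against Control 1 alone), a call lost without any 1 of the other 5 libraries (adjusted p from 0.0859 to 0.143). Of 6 macrophage markers tested 0 were called higher and 1 lower with luteolin than with IgE+BSA (Cd14, log2 -0.44, adjusted p = 0.0023, edgeR), while their sums overlapped. Of 9 neutrophil markers tested 3 were called higher and 0 lower (S100a8, Cxcr2 and S100a9, log2 0.43, 0.33 and 0.32). Basophil markers summed to between 4961 and 5546 CPM with luteolin and between 4826 and 5163 CPM with IgE+BSA, and 3 of 5 were called higher and 0 lower (Prss34, Mcpt8 and Cd200r3, log2 0.24, 0.21 and 0.20). Their part in the result was not tested, and in bulk RNA fewer cells of a type and less RNA per cell cannot be told apart.

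**Figure D3:**
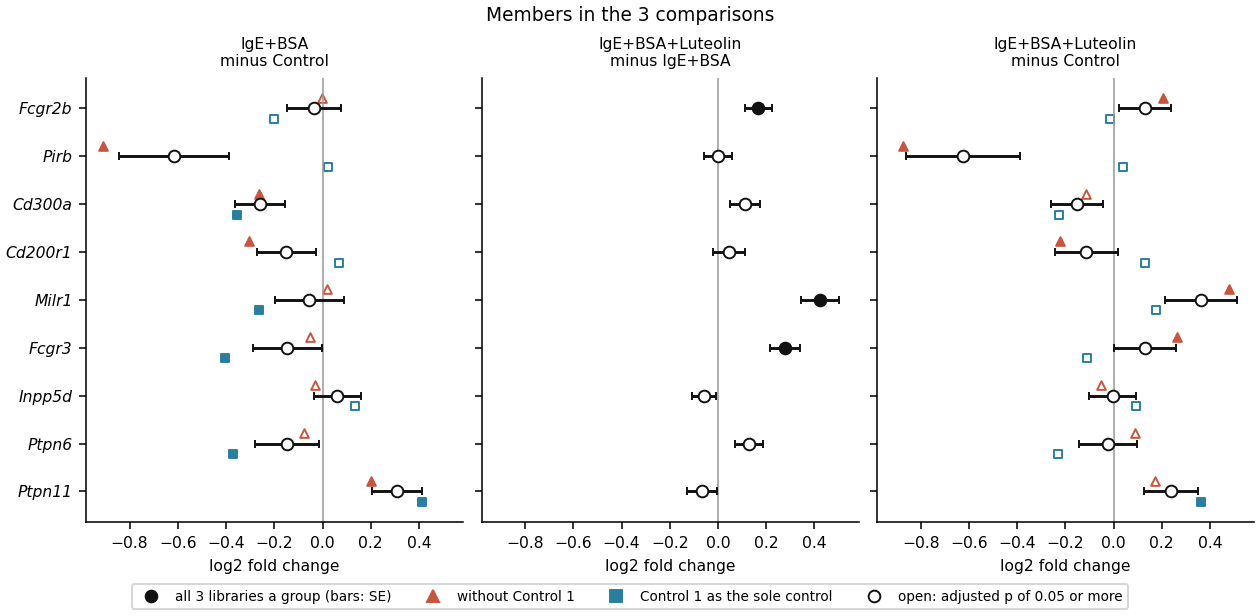
Log2 fold change of each member in the 3 comparisons, with the SE as bars for all 3 libraries a group (circles), and the values without Control 1 (triangles) and with Control 1 as the sole control (squares). Filled symbols passed an adjusted p of 0.05. Pirb ran from -0.91 without Control 1 to 0.02 against Control 1 in the comparison of IgE+BSA with Control, while Cd300a stayed negative and Ptpn11 positive.

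Antigen stimulation itself was examined by comparing IgE+BSA with Control. With all 3 control libraries 0 of 9 members were called by edgeR, DESeq2 or limma, and 3 of 9 had an unadjusted p under 0.05 in edgeR: Pirb and Cd300a with lower and Ptpn11 with higher values after stimulation. Of all genes 3.27% were called, 2.25% higher and 1.02% lower. The members Cd300a and Ptpn11, were the 2 that did not overlap between the groups, against 28.7% of all genes.

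Pirb was at 145.7, 277.6 and 267.6 CPM in Control 1, 2 and 3 and at 145.6, 147.0 and 157.6 CPM with IgE+BSA. Control 1 matched the stimulated libraries and the other 2 control libraries lay far above it. The log2 difference was -0.62 ± 0.23 (SE, adjusted p = 0.19, edgeR), -0.91 without Control 1 (adjusted p = 1.36e-07) and 0.02 against Control 1 alone (adjusted p = 0.847). Cd200r1 split in the same libraries, at 117.4, 148.0 and 149.5 CPM in Control and 124.6 ± 6.5 CPM with IgE+BSA (SD, n = 3). Pira2, a paired activating relative of Pirb that could share reads with it, was at 3.02, 8.33 and 7.54 CPM in Control and between 4.25 and 4.75 CPM with IgE+BSA. The neutrophil markers and Mcpt8, both low in Control 2 and 3, are given above. So are the basophil and mast cell markers that were unchanged or high there. The part of any of these markers in the Pirb values was not tested.

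Cd300a and Ptpn11 kept their direction without Control 1 and against Control 1 alone. Without Control 1 both were called, among 45.0% of all genes. How many of all genes behaved alike in the 2 settings was not counted. Cd300a was at 326.5, 315.6 and 286.7 CPM in Control, all above the IgE+BSA libraries, with a log2 difference of -0.26 ± 0.10 (SE, adjusted p = 0.221, edgeR). It was called without Control 1 (-0.27, adjusted p = 0.00813) and with Control 1 as the sole control (-0.35, adjusted p = 0.00426). Ptpn11 was at 69.4, 74.1 and 82.5 CPM in Control, all below the 96.0, 92.8 and 91.5 CPM with IgE+BSA. Its log2 difference was 0.31 ± 0.10 (SE, adjusted p = 0.159), 0.20 without Control 1 (adjusted p = 0.0354) and 0.41 against Control 1 (adjusted p = 0.00257), all by edgeR. Over 15 alternatives the adjusted p of Cd300a ran from 0.00426 to 0.615 and that of Ptpn11 from 0.00257 to 0.55, and each was called in 2 of 15.

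Calls of 5 of the other members differed with the control used. Without Control 1, 4 members were called, Cd300a, Pirb and Cd200r1 lower and Ptpn11 higher, among 45.0% of all genes. Against Control 1 alone 5 were called, Ptpn6, Fcgr3, Cd300a and Milr1 lower and Ptpn11 higher, among 42.3% of all genes, where the lone library is assumed to vary like the others. Fcgr3 was at 77.1 CPM in Control 1 and 57.8 and 60.2 CPM in the other 2, and Ptpn6 at 288.5 against 223.1 and 236.6 CPM. Fcgr2b (105.2 ± 10.2 and 102.9 ± 3.5 CPM in Control and IgE+BSA) and Inpp5d (623.5 ± 41.1 and 651.1 ± 7.3 CPM) were called in none of the 15 alternatives (SD, n = 3).

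The third comparison set luteolin-treated stimulated cells against Control and shares its libraries with the other 2. By edgeR, DESeq2 and limma 0 of 9 members were called, with 2 at an unadjusted p under 0.05 in edgeR, Pirb and Milr1, and 3.04% of all genes called, 0.285% higher and 2.75% lower. Milr1 was at 66.9, 60.1 and 48.7 CPM in Control, and the highest of these slightly exceeded the lowest luteolin library at 66.6 CPM. Its log2 difference was 0.36 ± 0.15 (SE, adjusted p = 0.204, edgeR), 0.48 without Control 1 (adjusted p = 0.000748) and 0.17 against Control 1 (adjusted p = 0.286). Without Control 1, 5 members were called, Fcgr2b, Fcgr3 and Milr1 higher and Pirb and Cd200r1 lower, among 60.0% of all genes. Against Control 1 alone 1 member was called, Ptpn11, with a log2 difference of 0.36 (adjusted p = 0.0144, edgeR) among 21.2% of all genes. Ptpn11 was the only member whose libraries did not overlap here, at 88.7, 84.0 and 94.7 CPM with luteolin, against 28.5% of all genes.

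Ratios within a library need no scaling and were compared for 3 pairs by an exact permutation test, two-sided, which with 3 against 3 libraries cannot go below p = 0.1. The ratio of inhibitory Fcgr2b to activating Fcgr3 was 1.83, 1.61 and 1.80 by counts with IgE+BSA and 1.56, 1.68 and 1.60 with luteolin, and these overlapped (exact permutation p = 0.2, adjusted 0.54). All ratios here are of counts without correction for exon length, so they compare groups and not the levels of the 2 genes. Per kilobase of exon Fcgr3 was the higher, at 37.5 against 18.6 CPM per kilobase for Fcgr2b over the 9 libraries. The ratio of Ptpn6 to Ptpn11 was 4.16, 3.01 and 2.87 in Control and 2.34, 2.55 and 2.36 with IgE+BSA. All IgE+BSA libraries were below all control libraries, with a log2 difference of -0.45, p = 0.1 by the exact permutation test and 0.54 after adjustment over the 9 ratio comparisons, and of -0.28 without Control 1. With luteolin the ratio was 2.87, 2.95 and 2.49, which overlapped both Control and IgE+BSA. The ratio of Inpp5d to Inppl1, which encodes the related phosphatase SHIP2, lay between 12.9 and 16.0 in all 9 libraries and the groups overlapped in every comparison.

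The row nearest to the missing Lilrb4a was Gm49339 (ENSMUSG00000062593, chr10:51480612-51496613). Of its 1990 exon bases 1846, or 92.8%, are shared with Lilrb4a, which encodes the ITIM receptor gp49B, and 6.13% with Lilr4b, which also had no row. It cannot be told apart from these genes by its counts and is given as itself. Gm49339 was at 2337, 1909 and 2900 CPM with IgE+BSA and at 1514, 1445 and 1666 CPM with luteolin. All luteolin libraries were below all IgE+BSA libraries, opposite in sign to Milr1, Fcgr3 and Fcgr2b, with a log2 fold change of -0.62 ± 0.10 (SE, adjusted p = 0.000157, edgeR), called in 14 of 14 alternatives. Against Control (1669, 2198 and 2037 CPM) the IgE+BSA libraries overlapped, with a log2 difference of 0.28 (adjusted p = 0.435, edgeR), 0.12 without Control 1 (0.455) and 0.49 against Control 1 alone, where it was called (0.0284). The luteolin libraries lay below all control libraries, with a log2 difference of -0.36 (adjusted p = 0.182, edgeR), -0.47 without Control 1, where it was called (2.66e-05), and -0.11 against Control 1 alone (0.346).

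Related genes were read from lists set by name, and shares called are again to be read against the 40.0% of all genes called between IgE+BSA+Luteolin and IgE+BSA. Of the activating Fc receptors and ITAM adaptors 5 of 6 tested were higher and 0 lower, with a median log2 fold change of 0.30. Fcer1a, the IgE-binding chain, rose from 4827 ± 210.3 to 6429 ± 621.3 CPM (log2 0.42), Ms4a2, the beta chain, by 0.30, the adaptor Hcst by 0.35, the gamma chain Fcer1g, which Fcgr3 also needs, by 0.29, and the adaptor Tyrobp by 0.19. Fcer1g and Tyrobp were named after their values were seen. The Hcst call was lost without IgE+BSA replicate 1, luteolin replicate 1 or luteolin replicate 2 (adjusted p = 0.0738, 0.0724 and 0.0961, edgeR). That of Tyrobp was lost without IgE+BSA replicate 1 or 3 or luteolin replicate 1 or 2 (adjusted p = 0.127, 0.151, 0.181 and 0.188, edgeR), and with the length correction (0.0528). Of the 6, 4 were called without IgE+BSA replicate 3 and 3 without each of the other 3 libraries named. With all 9 libraries in 1 fit 1 of the 6 was called, Ms4a2.

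The list of other inhibitory receptors and their close relatives, some of which activate, split in both directions, with 5 of 19 higher and 4 lower. Havcr2, which encodes TIM-3, was at 899.3, 734.8 and 960.1 CPM with IgE+BSA and at 208.7, 215.6 and 246.1 CPM with luteolin, a log2 fold change of -1.95 ± 0.09 (SE, adjusted p = 7.93e-12, edgeR). In Control it was at 302.1, 442.5 and 364.7 CPM, below every IgE+BSA library and above every luteolin library, and the difference of IgE+BSA from Control was 1.23 (adjusted p = 0.0116, edgeR), a call lost without Control 3, IgE+BSA replicate 1 or IgE+BSA replicate 3 (adjusted p = 0.0633, 0.0855 and 0.0833). It was called at 1.05 without Control 1 (adjusted p = 4.7e-06) and also against Control 1 alone (adjusted p = 4.87e-06, edgeR). Cd33 and Siglecf, both sialic acid-binding receptors, fell by 1.77 and 1.07 on the log2 scale with luteolin. Lair1, a collagen receptor, was higher by 0.26, and the relatives Cd300c2 and Cd200r3 by 0.44 and 0.20. The Cd300c2 call was lost without IgE+BSA replicate 1 or 3 or luteolin replicate 1 or 2 (adjusted p from 0.0821 to 0.165, edgeR), and that of Cd200r3 without luteolin replicate 1 (0.0577). Against Control, Cd300lb, an activating relative of Cd300a, was lower with luteolin by 1.21 on the log2 scale (adjusted p = 0.0118, edgeR), with adjusted p from 0.0534 to 0.109 without Control 2, Control 3 or any one of the luteolin libraries, and it was called at -1.35 without Control 1 and -0.90 against Control 1 alone. Of the 19, 2 were called higher without luteolin replicate 1 or 2 and 3 without IgE+BSA replicate 1 or 3, with 4 lower each time. With all 9 libraries in 1 fit 0 of the 19 were called higher and 3 lower.

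**Figure D4:**
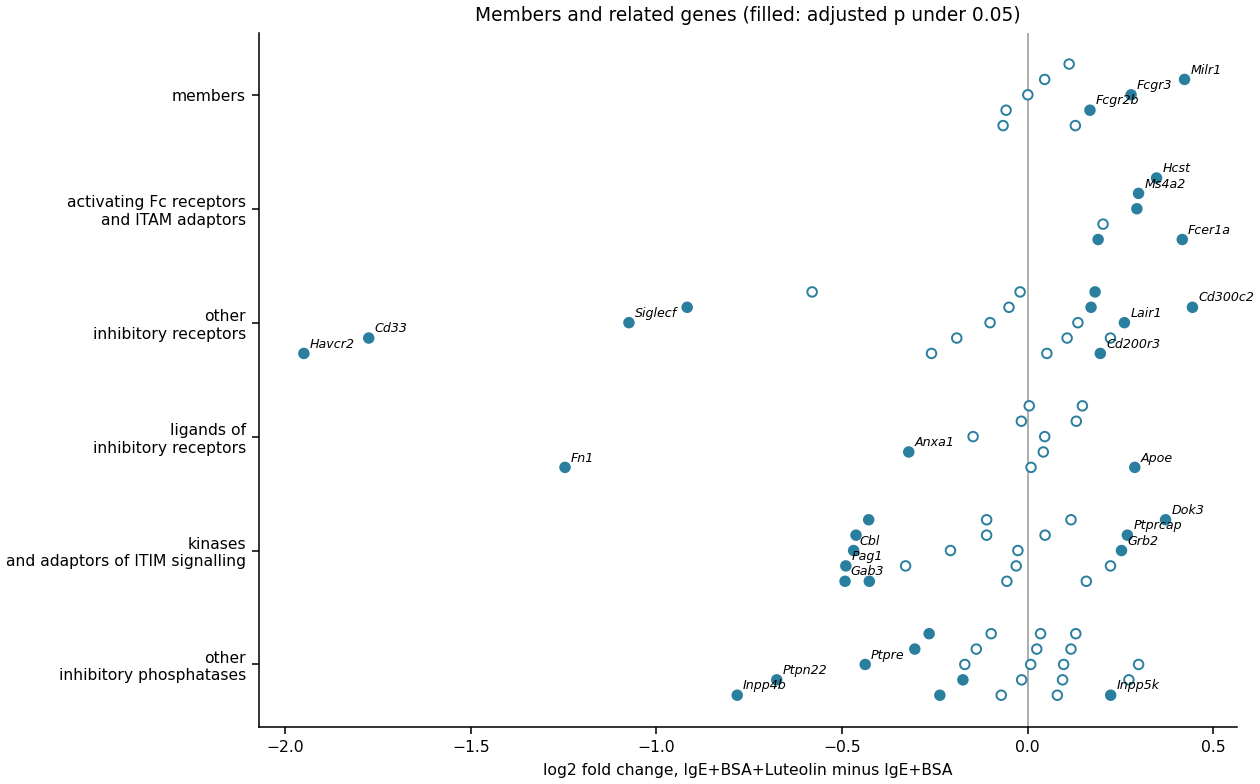
Log2 fold change of IgE+BSA+Luteolin against IgE+BSA for each tested gene (1 point a gene, spread vertically for legibility) of the members and 5 related lists. Filled points passed an adjusted p of 0.05, and the genes chosen by the naming rule are labelled. Members lay between -0.07 and 0.42, within a much wider range of other inhibitory receptors that reached -1.95 at Havcr2.

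Of the ligands of inhibitory receptors 1 of 11 was higher and 2 were lower. Apoe, apolipoprotein E, was higher by 0.29, and fibronectin (Fn1), at 5.82 ± 1.25 CPM with IgE+BSA, and annexin A1 (Anxa1) fell by 1.25 and 0.32 on the log2 scale. Apoe was also lower in IgE+BSA than in Control, at 43.9, 45.0 and 40.9 against 68.8, 67.7 and 65.5 CPM (log2 -0.64, adjusted p = 0.0207, edgeR). Its groups were well separated and the controls agreed, but the call was lost when any 1 library other than Control 1 was left out (adjusted p from 0.0734 to 0.164) and with the replicate number as a block (0.106). It was called at -0.67 without Control 1 and -0.69 against Control 1 alone. With all 9 libraries in 1 fit 0 of the 11 ligands were called between luteolin and IgE+BSA.

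Beyond the 3 phosphatases, 1 of 23 other inhibitory phosphatases was higher with luteolin and 7 were lower. The lipid phosphatase Inpp4b went from 436.2 ± 48.8 to 253.1 ± 33.8 CPM (log2 -0.78), and the tyrosine phosphatases Ptpn22 and Ptpre fell by 0.68 and 0.44 on the log2 scale, while Inpp5k, a relative of Inpp5d, was higher by 0.22. The split of this list turned with the scaling, to 8 higher and 5 lower with library size alone and 7 higher and 5 lower with the length correction. Of the kinases and adaptors of ITIM signalling 3 of 20 were higher and 6 lower. The adaptors Dok3 and Grb2 were higher by 0.37 and 0.25 and Ptprcap by 0.27, a call that was lost without luteolin replicate 2 (adjusted p = 0.0642, edgeR). Pag1, which brings Csk to the membrane, Gab3 and the ubiquitin ligase Cbl fell by 0.49, 0.49 and 0.47 on the log2 scale. Lyn, the kinase that phosphorylates ITIMs, differed by 0.05 ± 0.05 (SE, adjusted p = 0.503, edgeR) and was named after its values were seen. With library size alone 7 of these 20 were higher and 6 lower, and with all 9 libraries in 1 fit 0 higher and 1 lower, as in the other phosphatases.

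Genes with a sequence near to a member could trade reads with it, since the treatment of reads that match several genes was not given in the sources used here. Of 15 such genes 7 had a row and 5 were tested. With luteolin 3 of the 5 were higher than with IgE+BSA: Cd300c2 and Cd200r3, described above, and Cd200r4 at 0.18 (adjusted p = 0.0117, edgeR; 0.056 without IgE+BSA replicate 1 and 0.0959 without luteolin replicate 2). Of the 5, 1 was called without IgE+BSA replicate 1, luteolin replicate 1 or luteolin replicate 2, 2 without IgE+BSA replicate 3 and 0 with all 9 libraries in 1 fit. Pira2 and Cd300ld were not called. Fcgr4 and Cd200r2 had a row that did not pass the filter, with Fcgr4 at no more than 0.779 CPM and Cd200r2 at no more than 1.65 CPM in any library.

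Finally, the gene with the most similar profile over the 9 libraries was sought for each member among 8509 tested genes with a mean of at least 10 CPM. Milr1 was most like Gabarap (Pearson r of log2 CPM 0.99), Fcgr3 like Crtap (0.99), Fcgr2b like Slc38a7 (0.97), Cd300a like Zbtb45 (0.95) and Cd200r1 like Unc119b (0.95). Among the phosphatases, Ptpn6 was most like Il11ra1 (0.985) and Ptpn11 like Maco1 (0.97). Pirb was most like Gm37494 (0.995). Each is the highest value of a search over many genes in the same 9 libraries and serves as a description.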

How the data were processed

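RNA was sequenced by the authors from BMMCs of 3 groups with 3 libraries each, using stranded mRNA libraries on an Illumina instrument. Per the labels and the study's methods, reads were cleaned with HTStream, aligned with STAR 2.7.0f to mm10 and deposited as unfiltered raw counts for each Ensembl gene. The annotation release, the strand setting and the handling of reads matching several genes are not given in the sources used here. Libraries were grouped by their labels.

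Identifiers were matched to GENCODE M21 (GRCm38), where 47224 of 47643 had a symbol. Counts were analysed with edgeR 4.0.16 in R 4.3.3. Genes with a median CPM above 1 over the 9 libraries (11560) were tested with TMM factors by the quasi-likelihood test, two-sided, with only the 6 compared libraries in each fit. Adjusted p (Benjamini-Hochberg, over all genes tested) under 0.05 was the threshold. CPM values are TMM-normalized. Limits of 3 counts cover counting error only. The method was tested on simulated data in which 200 genes changed 2-fold. It recovered 61.5% of them for IgE+BSA against Control, 87% for luteolin against IgE+BSA and 55% for luteolin against Control. Of its calls 6.11%, 7.45% and 2.65% were false, in the same order. Smaller changes, such as most of those of the members, were not simulated. DESeq2 1.42.0 and limma 3.58.1 with a trend, other scalings, no filter, all 9 libraries in 1 fit, the replicate number as a block and each library left out were tried as alternatives, and a gene length correction (loess, span 0.5) and Control 1 as the sole control library were added after seeing the data.

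The members and lists were chosen with earlier results of these data known. Named genes were all members, Inppl1, up to 3 called genes of each list in each direction and comparison with the largest change, genes near in sequence to a member, and the gene most correlated with each member. The gene most correlated with Inpp5d is not reported here. Every pair of replicates differed beyond sampling noise (chi-square divided by its degrees of freedom of at least 4.05).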

Additional observations from a re-analysis of the deposited data

How the results depend on the processing

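Results depended on which libraries were in the fit. Against Control the highest counts of all genes called came without Control 1. The lowest came without IgE+BSA replicate 3 for IgE+BSA and without luteolin replicate 2 for luteolin. Without one library, members called ranged from 0 to 4 for IgE+BSA against Control, from 2 to 5 for luteolin against IgE+BSA and from 0 to 5 for luteolin against Control, and all genes called from 90 to 5207, from 3242 to 5082 and from 2 to 6931. The log2 ratios ranged from 0.05 to 0.16, -0.17 to -0.08 and -0.0613 to 0.0179 (Fcgr2b to Fcgr3), from -0.55 to -0.28, 0.15 to 0.27 and -0.36 to -0.09 (Ptpn6 to Ptpn11) and from -0.12 to 0.018, -0.14 to -0.01 and -0.18 to -0.04 (Inpp5d to Inppl1), in the same order of comparisons. Leaving out a library turned the sign of small member differences, whose log2 ranges were -0.18 to 0.0196 (Milr1) and -0.0302 to 0.11 (Inpp5d) for IgE+BSA against Control, -0.0376 to 0.036 (Pirb) and -0.0116 to 0.0994 (Cd200r1) for luteolin against IgE+BSA, and -0.0513 to 0.0498 (Inpp5d) and -0.092 to 0.0891 (Ptpn6) for luteolin against Control. Against Control 1 as the sole control, an alternative chosen after seeing the data, 5 members and 4892 genes were called for IgE+BSA and 1 member and 2447 genes for luteolin, and log2 differences turned to 0.0233 (Pirb) and 0.0665 (Cd200r1) for IgE+BSA and to -0.0163 (Fcgr2b), -0.11 (Fcgr3), 0.04 (Pirb), 0.13 (Cd200r1) and 0.0925 (Inpp5d) for luteolin.

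For IgE+BSA against Control, 378 of all genes were called, against 1227 by DESeq2, 618 without the filter and 1105 with all 9 libraries in 1 fit. For luteolin against Control it was 351, against 1379, 811 and 1251, and 602 with the length correction. For luteolin against IgE+BSA, 4624 genes and 3 members were called, against 1093 and 0 with all 9 libraries in 1 fit. It was 5623 genes and 5 members with library size alone, and 5281 and 5 with the length correction. Signs also turned for Fcgr2b without the filter (0.0105, IgE+BSA against Control), for Inpp5d with library size alone (-0.12) or the length correction (-0.0108) in the same comparison, for Pirb between luteolin and IgE+BSA with DESeq2 (-0.0018), its size factors (-0.0017) or all 9 libraries (-0.0024), for Inpp5d (0.0547 and 0.0969) and Ptpn11 (0.047 and 0.0853) there with library size alone and the length correction, and against Control with luteolin for Inpp5d without the filter (0.0643), with all 9 libraries (0.0015) or the length correction (0.0859) and for Ptpn6 without the filter (0.0393) or with the length correction (0.0153). The causes of these changes were not tested. With 9515004 counts, Control 2 was the shallowest library.

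Same-numbered libraries did not deviate together in every pair (correlations of -0.0237, 0.175 and 0.282 between luteolin and IgE+BSA), so the numbers were not taken as pairs. With a replicate block, 5 members were called between luteolin and IgE+BSA, among 48.3% of all genes (5582). For IgE+BSA and luteolin against Control 0 members were called, and 144 and 212 of all genes.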
